A study of Mus musculus with 46 samples.

Results

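Of 22367 protein-coding gene records annotated on the mouse build mm9 (GENCODE vM1), 124 gained an H3.3 peak late in the conversion of fibroblasts to induced pluripotent stem cells (iPSCs) and held one in the finished iPSCs. A gene was called bound when the midpoint of an H3.3 peak lay between 1000 bp before its start and 1000 bp beyond its end. The 124 genes were bound in the D16S+ and the iPSC library and in none of the D0, D3, D6T-, D9T- and D12S+ libraries. They were 1.904% of the 6512 genes with no H3.3 peak from D0 to D12S+. Of the remaining 6388 genes, 75 were bound in D16S+ only, 566 in iPSCs only and 5747 in neither. A further 120 genes took the same course from D12S+ on and serve below as the group most like the members. The members were thus chosen by the H3.3 calls of these 7 libraries, which are given as a description and carry no test. Over all protein-coding genes, the libraries from D0 to D12S+ had H3.3 at 59, 55.2, 57.3, 55.4 and 48.2%, with 41.6% for D16S+ and 59.1% for iPSCs, and among the 6512 at 3.06% in D16S+ and 10.6% in iPSCs.

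The cells were mouse embryonic fibroblasts (MEFs) that carried an Oct4-GFP reporter, infected with pMXs retroviruses for Oct4, Sox2, Klf4 and c-Myc and grown without feeder cells in medium with LIF. D0 cells were taken before conversion and D3 cells unsorted on day 3. On days 6 and 9 cells were sorted on the fibroblast surface protein Thy-1 (T), on days 12 and 16 on SSEA-1 (S), a surface antigen of mouse pluripotent cells. T- and S+ cells were on the route to iPSCs, and T+ and S- cells were the unsuccessful fractions D6T+, D9T+, D12S- and D16S-. ESD3, a mouse embryonic stem cell line, was the pluripotent reference. In a separate conversion, MEFs received Scl, Lmo2, Runx1 and Bmi1, and H3.3 was profiled in MEF (day 0), D4 (day 4) and fractions sorted with or without cKit, a receptor of blood progenitors. Each group was a single library (n = 1), which leaves no replicate spread for any comparison between libraries, and no p-value was computed. All intervals below are 95% Wilson intervals that cover counting over genes or peaks only.

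H3.3 is a variant of histone H3 that can be built into chromatin outside DNA replication. The chaperone Hira places it at active genes and regulatory elements, whereas Atrx and Daxx place it at heterochromatin, telomeres and retroviral repeats. H3K4me3 lies around the starts of active genes, and in pluripotent cells also of poised genes, while H3K36me3 follows the bodies of transcribed genes.

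The D16S+ H3.3 library was the shallowest of the 16 H3.3 libraries, with 18.7 M tags against up to 91.8 M in cKit+. It had 34062 peaks with 4.88% of its tags in them, while iPSCs had 41.2 M tags and 81867 peaks. H3K4me3 libraries held 15.8 to 35.4 M tags and H3K36me3 libraries 13.2 to 25.4 M, again with D16S+ the lowest. The share of tags in peaks differed too, from 3.71% in D16S+ to 34.8% in D6T- for H3K4me3. For H3K36me3 it was 31.3% in D0, 42.4% in D9T-, 1.07% in D12S+ and 2.88% in iPSCs. A change of a mark along the route cannot be told apart from these differences between libraries. H3.3 was called at 8 of 8 fibroblast markers in D0, 1 of 8 in D16S+ and 3 of 8 in iPSCs. Of 8 pluripotency markers, 2 were bound in D0, 7 in D16S+ and 8 in iPSCs, with Dppa5a the marker unbound in D16S+. In the unsuccessful fraction D16S-, 6 of the fibroblast and 5 of the pluripotency markers were bound. Zfp42, a marker on the pluripotency list, is itself a member, so its calls on the route follow from the membership rule. A gene without a peak in a shallow library was not detected there, and its absence from the chromatin cannot be told apart from low depth.

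Because the calls are made of single stretches of DNA, 3 sites are shown as examples of what was gained. The peak at Slc5a11, a sodium-coupled inositol transporter, spans the gene's start and also held H3.3 in iPSCs and ESD3 and H3K4me3 in iPSCs. The peak in Vwa3b, which encodes a von Willebrand factor A domain protein, has its midpoint within an intron. This peak was likewise covered in all 3 of these lists, and Vwa3b stayed a member under each of the 7 other ways of calling members that were tried. The peak in Dmrt1, a regulator of testis development, has its midpoint in an intron, and an H3.3 peak of ESD3 but none of iPSCs overlapped it. Each sequence is the plus strand of mm9 around the centre of the D16S+ peak, with CpG dinucleotides in capitals, and that of Slc5a11 ends 1 base before the annotated untranslated region.
Slc5a11, chr7:130358040-130358293: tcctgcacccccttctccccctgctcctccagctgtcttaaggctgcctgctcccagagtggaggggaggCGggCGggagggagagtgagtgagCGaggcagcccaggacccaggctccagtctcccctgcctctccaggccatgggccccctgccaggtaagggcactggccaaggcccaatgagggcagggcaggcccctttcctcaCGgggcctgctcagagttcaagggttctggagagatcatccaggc
Vwa3b, chr1:37099321-37099620: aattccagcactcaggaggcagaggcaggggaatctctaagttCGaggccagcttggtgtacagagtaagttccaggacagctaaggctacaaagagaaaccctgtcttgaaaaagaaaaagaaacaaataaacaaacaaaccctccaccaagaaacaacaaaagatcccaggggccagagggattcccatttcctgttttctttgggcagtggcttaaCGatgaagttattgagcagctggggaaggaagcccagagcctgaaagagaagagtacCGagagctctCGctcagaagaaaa
Dmrt1, chr19:25648740-25649039: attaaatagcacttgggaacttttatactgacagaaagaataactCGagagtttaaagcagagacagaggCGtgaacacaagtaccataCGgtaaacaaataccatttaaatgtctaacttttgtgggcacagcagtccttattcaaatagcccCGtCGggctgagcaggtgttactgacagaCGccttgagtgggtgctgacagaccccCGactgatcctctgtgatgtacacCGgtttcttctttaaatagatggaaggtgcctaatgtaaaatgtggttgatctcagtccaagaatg

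The Slc5a11 stretch held 4 CpG in 254 bases, the Vwa3b window 4 and the Dmrt1 window 8 in 300 bases each. Across all 141 D16S+ peaks of the members, the central 300 bp had a median GC content of 47.7% and a median of 4 CpG, against 46.7% and 4 for all D16S+ peaks in genes. Away from transcription starts, 8 of 89 member peaks (8.99%) held 15 CpG or more, against 1.78% of all such peaks and 6.80% of those of the genes gained from D12S+ on, while within 1 kb of a start the share was 9.62% against 18.2%. No match to the 6 motifs searched was found in the 3 windows shown. Among all member windows, counted on both strands and with overlaps between motifs allowed, the octamer ATGCAAAT was in 1 of 141 (0.709%, all D16S+ peaks in genes 1.66%), the Sox core CATTGT in 14 (9.93%, all 13.7%) and the Klf box CCACACCC in 2 (1.42%, all 3.19%). The Esrrb box TCAAGGTCA was in 2 (1.42%, all 0.880%), the AP-1 site TGANTCA in 5 (3.55%, all 8.80%) and the E-box CACGTG in 5 (3.55%, all 4.19%).

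The gain in D16S+ was small in extent at most members. The score of a peak is its tag count per 10 M tags, and scores were summed over the peaks of a gene. The D16S+ sums ran from 6.13 to 94.9 with a median of 8.41, close to the lowest score of any D16S+ peak, 5.33. Of the 124 members, 110 had a single D16S+ peak, 72 of them a single peak of 500 bp, and 79 had a sum under 10. Only 6 members had a sum over 30, and no member had more than 4 peaks. The sums in iPSCs ran from 4.86 to 574.92 with a median of 20.6, and 10 members had 5 or more iPSC peaks. The iPSC sum was the higher one in 92 of 124 members, with a median log2 ratio of 1.05. Over the 8672 genes bound in both libraries that median was 1.32, so a higher iPSC score was no feature of the members.

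**Figure D1:**
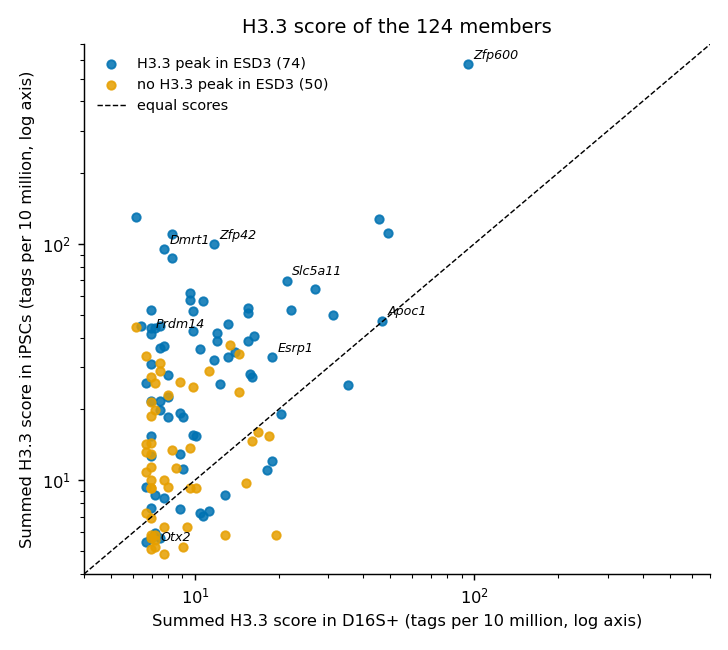
Summed H3.3 peak score of each of the 124 members in D16S+ (x axis) and in iPSCs (y axis), in tags per 10 M on log axes, with members bound in ESD3 in blue (74) and the others in orange (50); the dashed line marks equal scores. Most points crowd at D16S+ sums under 10, and 92 of 124 lie above the line.

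Members were close to other genes in length, with a median of 16429.5 bp against 15427 bp for all genes and 3862 bp for the 6512 genes not bound before, and they lay on 21 chromosomes. Of 143 pairs of a gene and a peak, 51 (35.7%) had the peak's midpoint within 1 kb of a transcription start. The midpoint lay in another exon in 10, in an intron in 69 (48.3%) and in the flank beyond the gene's end in 13. Over all genes 21.8% of such pairs were near a start and 61.6% in an intron, and among the 120 genes gained from D12S+ on 21.6% were near a start. Counted per gene, the order was another, as 51 of 124 members (41.1%) had a D16S+ peak near a start, against 47.9% of the 9298 genes bound in D16S+ and 32.5% of the genes gained from D12S+ on. For 20 members every D16S+ peak also lay in the window of another gene, so that the peak cannot be given to a single gene. Examples are Aire with Dnmt3l, Wfdc3 with Dnttip1, Rps27 with Rab13 and Nup210l, and Kirrel2 with its neighbour Nphs1, itself a member, which both encode proteins of the kidney's filtration slit. The rule also has an edge. Hpn, a membrane serine protease, and 2210404O09Rik entered with peak midpoints 11 and 17 bp inside the window (scores 6.93 and 6.67), and Slc5a1 and Zfp455 stayed outside by 21 and 39 bp (scores 6.67 and 9.87).

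A member was bound in both libraries by the rule, but not always at the same place. In 83 members (66.9%) a D16S+ peak overlapped an iPSC peak, against 79.1% of all genes bound in D16S+ and 86.7% of the genes gained from D12S+ on. The other 41 members carried H3.3 at different sites in D16S+ and iPSCs. In 6 members a D16S+ peak touched a D0 peak whose midpoint lay outside the window, and 2, 7, 6 and 2 members did so for D3, D6T-, D9T- and D12S+. Rps27 did so for every one of these libraries, and it was kept as a member in 1 of the 7 other ways of calling. Membership itself depended on how strict the calls were. Of the 124 genes, 74 stayed members with no flank around the gene, 76 with a flank of 5 kb, 41 when every H3.3 peak had to exceed input 4-fold, 35 when only peaks at or above the median score of their library counted, and 73 when every route list was cut to the same number of peaks.

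Pluripotency genes were among the members. The list used held 74 genes, and 14 of them had no H3.3 peak from D0 to D12S+. Of these 14, 4 were members (28.6%, against 1.904% of all genes not bound before), namely Prdm14, Zfp42, Otx2 and Ooep. Under the 7 other ways of calling members, Prdm14 and Zfp42 were kept in 5, Otx2 in 3 and Ooep in 2. Ooep was not kept when any overlap replaced the midpoint. Another 4 were bound in iPSCs but not D16S+ (Calcoco2, Dppa4, Foxd3 and Dppa3), and 6 in neither (Tcl1, Pramel7, Pramel6, Fut9, Zscan4c and Nr0b1). The list was drawn up with earlier results of these data known, so its count is a description.

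Zfp42 (Rex1), a zinc-finger factor widely used as a marker of embryonic stem cells, had H3.3 sums of 11.7 in D16S+, 99.4 in iPSCs and 147 in ESD3. It had no H3.3 peak in the 4 unsuccessful fractions or the 4 transdifferentiation libraries. Its H3K4me3 sums were 0 in D0, D3 and D9T-, 6.01 in D6T-, 46.1 in D12S+, 0 in D16S+ and 176 in iPSCs, and it had an H3K36me3 peak only in iPSCs (13.4). Zfp42 thus had H3K4me3 in D12S+, a library in which no H3.3 was called. Its D16S+ site was covered by H3.3 in iPSCs and ESD3 and by H3K4me3 in iPSCs.

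Prdm14, a factor of naive pluripotency and of primordial germ cells, had H3.3 sums of 6.93 in D16S+, 41.6 in iPSCs and 12.5 in ESD3. Ooep, a protein of the oocyte and early embryo, had 8.27, 109.6 and 10.4. Otx2, a homeobox factor of primed pluripotency and of the head, had 7.20 and 5.22 and no peak in ESD3. All 3 genes had H3K4me3 in D0 already (32.7, 36.8 and 25.5), and their sums in iPSCs were higher (53.4, 117.8 and 76.6). None of the 3 had H3.3 in an unsuccessful fraction. At Otx2 the D16S+ and iPSC peaks did not overlap, and at Prdm14 and Ooep the ESD3 peak lay elsewhere than the D16S+ peak.

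Germline and epithelial members were fewer in number, from smaller lists. Of 12 germline genes not bound before, Tex19.1 and Dmrt1 were members (16.7%, against 1.904% of all genes not bound before). Tex19.1, a mammal-specific protein of germ and pluripotent cells, had H3.3 sums of 9.60 in D16S+ and 13.6 in iPSCs and none in ESD3. Its H3K4me3 was absent until D9T-, then 6.02 in D12S+, 24.7 in D16S+ and 65.0 in iPSCs. Dmrt1 had H3.3 sums of 7.74, 94.8 and 48.3 in D16S+, iPSCs and ESD3, and H3K4me3 in every route library but D16S+, from 48.8 in D0 to 89.9 in iPSCs. Of 3 epithelial genes not bound before, Esrp1, a splicing regulator of epithelial cells, was a member (33.3%). Its H3.3 sums were 18.9, 33.01 and 24.7 in D16S+, iPSCs and ESD3, and it was also bound in D9T+ (7.12), D12S- (14.1) and D16S- (16.8). Esrp1 was thus bound in both sorted fractions of day 16, and it was not kept as a member when any overlap replaced the midpoint. Dmrt1 and Esrp1 were kept in 5 of the 7 other ways of calling and Tex19.1 in 4. No member came from the 8 hematopoietic genes or the 17 germ layer regulators not bound before. These lists are too small for a count of 0 to mark a difference from 1.904%. The fibroblast and housekeeping lists had no gene that was unbound before.

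Genes with C2H2 zinc fingers, the fold of many DNA-binding factors including the KRAB repressors of retroviral repeats, made up a larger part of the members than of other genes. Proteins were translated from the annotated coding sequences and counted when they held 3 fingers or more. This gave 12 of 123 members with a coding sequence (9.76%, interval 5.67 to 16.3%), against 1.69% of the genes not bound before, 2.82% of all genes and 5.66% of genes bound in iPSCs only. The genes gained from D12S+ on had a like share, 10.8%. The 12 members included Prdm14, Zfp42, Zfp459, Zfp600, Zfp619, Zfp933, 2410141K09Rik, 2210404O09Rik (now Zfp995), Gm4723 (now Zfp968), Gm13060 (now Zfp683) and Gm17067. Of these 12 members, 8 were bound in ESD3 (all genes 50.4%), and 10 had H3K4me3 in iPSCs (all genes 67.9%) and 4 in D0 (all genes 68.6%). In D12S- 3 were bound (all genes 60.2%) and in D16S- 1 (all genes 54.2%). Genes of this kind can have close copies elsewhere in the genome, and the values at them are uncertain for that reason.

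Zfp600 had the highest H3.3 sums of all members, 94.9 in D16S+, 574.92 in iPSCs and 231 in ESD3, with 4 peaks in D16S+. Its H3K4me3 was absent from D0 to D12S+, then 9.80 in D16S+ and 440.8 in iPSCs, and it had no H3.3 in any unsuccessful or transdifferentiation library. The input tags under its peaks were also dense, 4.67 times the library median in D16S+, 4.16 times in iPSCs and 4.74 times in ESD3. Its strongest D16S+ peak exceeded input only 2.03-fold. The part of this input density in the scores was not tested. 2410141K09Rik had H3.3 sums of 8.27, 86.6 and 19 and H3K4me3 of 17.1 in D12S+, 17.4 in D16S+ and 116.5 in iPSCs, with none earlier. Zfp933 and Zfp619 had other histories, with H3K4me3 of 177.5 and 85.4 and H3K36me3 of 390 and 171 already in D0.

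Solute carriers, the membrane transporters of small molecules, made up 8 members by annotated symbol (6.45%, all genes 1.59%, genes not bound before 0.921%). Mcart6, now named Slc25a53, was not counted, as its annotated symbol differs. Of the 8 members, 7 were bound in ESD3 (all genes 50.4%). They carry inositol (Slc5a11), thiamine (Slc19a3), neutral amino acids (Slc7a8), zinc (Slc39a4), calcium in exchange for sodium (Slc8a2) and glycine (Slc6a5), and Slc22a29 and Slc35f3 complete the group. Slc5a11 had H3.3 sums of 21.3 in D16S+, 69.7 in iPSCs and 84.4 in ESD3, no peak in the unsuccessful fractions and H3K4me3 in iPSCs only (43.1). Slc22a29 and Slc35f3 had no peak in those fractions either. Slc19a3 was bound in D16S- (9.76), Slc7a8 (8.42), Slc39a4 (8.23) and Slc8a2 (7.32) in D12S-, and Slc6a5 in D6T+ (8.84). Of the sensory receptor families, 1 of 1096 olfactory receptor genes not bound before was a member (0.806% of members, all genes 4.98%) and 2 of 321 vomeronasal receptor genes were (1.61% of members, all genes 1.48%). Predicted genes named Gm or Rik made up 36 members (29.03%), against 28.8% of genes not bound before and 15.5% of all genes.

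Some members are signalling genes, singled out here after their values were seen. Fgfr4, a receptor of fibroblast growth factors, had H3.3 sums of 6.93, 30.9 and 13.0 in D16S+, iPSCs and ESD3 and 21.0 in D12S-. Klb, the co-receptor beta-Klotho that acts with Fgfr4, had 7.20, 5.95 and 18.5, and also 15.9 in D16S-, 18.8 in MEF, 9.21 in cKit+ and 43.6 in cKit-. The D16S+ peak of Klb straddled the gene's end, with its midpoint just beyond. This peak overlapped H3.3 peaks of D0, D6T-, D9T- and D12S+ whose midpoints were outside the window. Klb was a member under none of the 7 other ways of calling. Fgfr4 and Klb were thus both bound in an unsuccessful fraction as well. Osm, a cytokine of the LIF family, had 15.7, 28.2 and 6.48 and none in the unsuccessful fractions, with H3K4me3 in D16S+ (8.54) and iPSCs (37.9) only. The ligands Wnt8a (Wnt pathway) and Jag2 (Notch pathway) had iPSC sums of 27.9 and 13.1, and Wnt8a but not Jag2 was bound in ESD3 (9.02). Wnt8a was also bound in D6T+ (8.38) and Jag2 in D12S- (6.22). The D16S+ peak of Jag2 overlapped H3.3 peaks of D6T- and D9T- whose midpoints were outside the window. Of the 7 other ways of calling, Osm was kept in 5, Fgfr4 and Wnt8a in 4 and Jag2 in 2.

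In ESD3, 74 of 124 members were bound (59.7%, interval 50.9 to 67.9%), against 50.4% of all protein-coding genes and 7.82% of the genes not bound before. Genes bound in iPSCs only reached 36.04% (32.2 to 40.1%), genes bound in D16S+ only 21.3% and genes gained from D12S+ on 72.5%. The share of members was thus above that of the genes first bound in iPSCs, in a single ESD3 library. Members had to be called in D16S+ and the genes first bound in iPSCs had to be missed there. The part of this choice in the difference was not tested. The 74 sums in ESD3 ran from 6.01 to 231 with a median of 17.2. They were lower than in iPSCs in 58 of 74 members, with a median log2 ratio of -0.57, and the ratio over all genes bound in both was -0.83. At the level of sites, the D16S+ peak of 51 members (41.1%) overlapped an ESD3 peak, against 58.6% of all genes bound in D16S+.

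Members with the highest ESD3 sums included Zfp600, Zfp42, Slc5a11, C330021F23Rik, Vwa3b, Apoc1, Dmrt1, Gm3667 and Gm6309. C330021F23Rik (now Rps23rg1) had 45.6, 127.55 and 79.1 in D16S+, iPSCs and ESD3 and also 13.9 in D16S-. Apoc1, an apolipoprotein, was nearly level with 46.6, 47.3 and 49.5, and its H3K4me3, absent before D9T- (13.4), was 14.7 in D12S+, 19.9 in D16S+ and 56.0 in iPSCs. Among the 50 members not called bound in ESD3 the highest iPSC sums were those of Rtp3 (44.6), 1700016C15Rik (37.5), C230029F24Rik (34.3), Gm13060 (33.5) and Btnl7 (31.4). The iPSC peak of Rtp3 did overlap an ESD3 peak, whose midpoint lay outside the window.

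**Figure D2:**
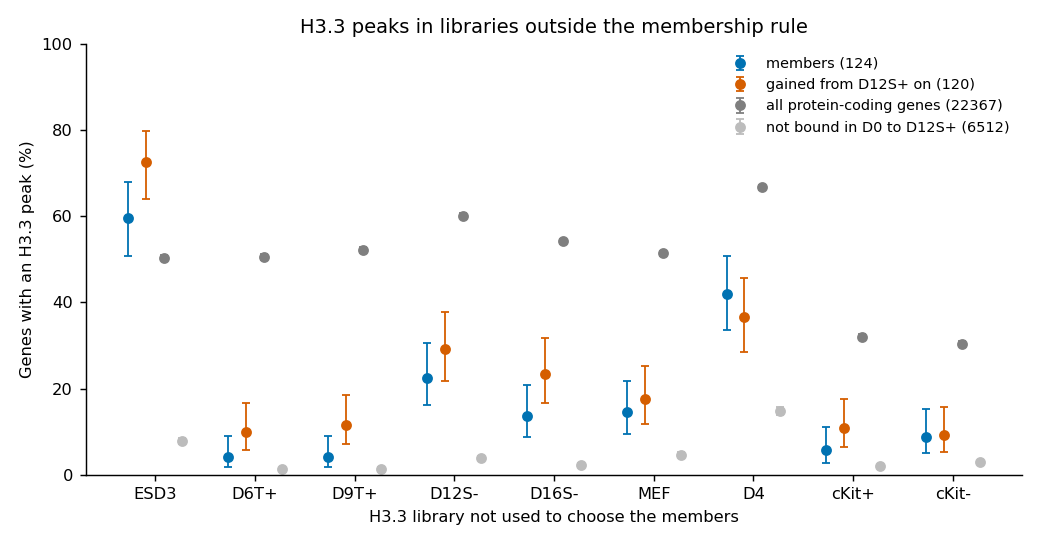
Percentage of genes with an H3.3 peak in the 9 H3.3 libraries that the membership rule did not use, for the members (blue), genes gained from D12S+ on (orange), all protein-coding genes (dark grey) and genes not bound from D0 to D12S+ (light grey), with 95% Wilson intervals over genes. Members stand at 59.7% in ESD3 and at 4.0 to 22.6% in the unsuccessful fractions, where all genes stand at 50.6 to 60.2%.

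In the unsuccessful fractions few members were bound. The counts were 5 in D6T+ (4.0%, all genes 50.6%), 5 in D9T+ (4.0%, all genes 52.2%), 28 in D12S- (22.6%, all genes 60.2%) and 17 in D16S- (13.7%, interval 8.74 to 20.9%, all genes 54.2%). These low shares follow in part from the choice of genes unbound in D0 to D12S+, of which 1.23, 1.40, 3.92 and 2.33% were bound in the same 4 fractions. Against genes bound in iPSCs only, the share of members was higher in D16S- (8.30% of those genes) and in D12S- (11.8%), with overlapping intervals in D16S-. Without any base of an earlier peak in the window, an alternative chosen after seeing the data, the D16S- share of members was 8.74%. The D16S- peak lay on the D16S+ site in 12 members (9.68%, against 68.5% of all genes bound in D16S+). The D16S- library was no shallower than D16S+, with 20.5 M tags and 65454 peaks.

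In all, 84 members (67.7%, all genes 33.3%, genes not bound before 93.1%) had no H3.3 peak in any of the 4 unsuccessful fractions. Of these, 45 were bound in ESD3 (36.3% of the members, all genes 3.62%, genes not bound before 5.97%) and 39 were not (31.5%, all genes 29.7%). Of the 40 members bound in an unsuccessful fraction, 29 were bound in ESD3 (23.4% of the members, all genes 46.8%) and 11 were not (8.87%, all genes 19.9%). Only 10 were bound in 2 or more of these fractions (8.06%, all genes 59.1%). Summed over the 4 fractions, the highest scores were those of Cc2d1a (41.3), Esrp1 (38.0), Glb1l2 (37.2), 1700016C15Rik (34.6), Rsph4a (32.4) and Fam83c (29.6). Cc2d1a, a signalling scaffold, had 34.3 of its sum in D16S-, above its D16S+ (6.67) and iPSC (9.35) sums, and it was a member under none of the 7 other ways of calling. Rsph4a, a radial spoke protein of motile cilia, had 11.6 in D9T+, 13.7 in D12S- and 7.07 in D16S-, against 16.0 in D16S+ and 14.7 in iPSCs.

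In the hematopoietic conversion, 18 members were bound in MEF (14.5%, all genes 51.4%, genes not bound before 4.65%), 52 in D4 (41.9%, all genes 66.8%), 7 in cKit+ (5.6%, all genes 32.1%, genes not bound before 1.93%) and 11 in cKit- (8.9%, all genes 30.5%, genes not bound before 2.87%). MEF and D0 are both fibroblasts before conversion, and the 18 members bound in MEF but not D0 show that lists from like cells can differ at these genes. The MEF library had 46.7 M tags against 27.0 M in D0. The D4 library had 108179 peaks, the most of any, and 14.8% of the genes not bound before were bound in it. Cc2d1a (317), Csmd1 (117), Slc7a8 (116) and Slc8a2 (73.3) are examples of members with a high D4 sum. No H3.3 peak in any of the 9 libraries outside the rule was found at 25 members (20.2%, all genes 23.2%).

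H3K4me3 was found at many members in the libraries before H3.3 was called. It was found at 69 members in D0 (55.6%, all genes 68.6%), 69 in D3 (all genes 66.9%), 71 in D6T- (all genes 67.9%) and 71 in D9T- (all genes 67.1%). The D0 share ranged from 37.0% with a flank of 5 kb (all genes 72.7%) to 77.4% with an equal number of H3.3 peaks per list, and was 47.0% over the 83 members with the same site in D16S+ and iPSCs. Later it was found at 75 members in D12S+ (60.5%, all genes 65%), at 50 in D16S+ (40.3%, all genes 50.9%) and at 88 in iPSCs (71.0%, all genes 67.9%). Among the genes not bound before, the same series of H3K4me3 libraries gave 19, 17.6, 18, 16.8, 15.5, 8.78 and 20.7%. The shares of members were thus above those of the genes not bound before, and below those of all genes in each library but iPSCs. The D16S+ share was the lowest along the route both for members and for all genes, in the H3K4me3 library with the fewest tags.

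Between D0 and iPSCs, 66 members had H3K4me3 in both (53.2%, all genes 64.2%), 3 in D0 only (2.42%, all genes 4.44%), 22 in iPSCs only (17.7%, all genes 3.69%) and 33 in neither (26.6%, all genes 27.7%). For 16 members it was found in iPSCs and in none of D0 to D9T- (12.9%, all genes 2.26%). Where both had a peak, the sum was higher in iPSCs in 16 members and lower in 50, with a median log2 ratio of -0.73. Over all genes with both, the median was -1.38, a larger drop than that of the members. The largest positive differences, iPSCs minus D0, were at Zfp600 (440.8), Zfp42 (176), 2610036A22Rik (120.3), 2410141K09Rik (116.5), Ooep (81.0) and B3gnt7 (74.9), a glycosyltransferase. The largest negative differences were -142.7 at 6530403G13Rik, -120.7 at Wfdc3, -105.4 at Rps27 and -104.7 at Mcart6 (now Slc25a53, a mitochondrial carrier). At all but Mcart6 the D16S+ H3.3 peak also lay in the window of another gene. The differences were not scaled for enrichment, and 30.4% of H3K4me3 tags lay in peaks in D0 against 12.7% in iPSCs. A negative difference does not by itself mark a loss particular to that member.

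H3K36me3 was found at a smaller share of members than of all genes. It was found at 18 in D0 (14.5%, all genes 47.1%), 16 in D3 (all genes 43.5%), 11 in D6T- (all genes 37.7%) and 21 in D9T- (all genes 46.9%). The later counts were 6 for D12S+ (all genes 23.3%), 12 for D16S+ (all genes 25.4%) and 19 for iPSCs (15.3%, interval 10.0 to 22.7%, all genes 34.3%). Of the H3K36me3 tags, 31.3% lay in peaks in D0, 1.07% in D12S+ and 2.88% in iPSCs. The course of the counts and scores cannot be told apart from this. The iPSC share depended on the calls, and was 30.3% with an equal number of H3.3 peaks per list, 28.0% with peaks at or above the median score and 23.8% without a flank (all genes 32.8%). Among the genes not bound before the shares were 4.81, 3.58, 2.49, 4.59, 1.27, 1.87 and 2.15% in the same order. No route library had an H3K36me3 peak at 86 members (69.4%, all genes 42.8%). In 12 members it was found in iPSCs and not D0 (9.68%, all genes 4.01%). The largest positive differences between D0 and iPSCs were at Ripk4 (67.2), a kinase of epidermal differentiation, Esrp1 (42.8), Rps27 (18.9) and Zfp42 (13.4). A single member, Rps27, had its D16S+ H3.3 site under an iPSC H3K36me3 peak (0.806%, all genes bound in D16S+ 20.1%). The Rps27 site also touched H3.3 peaks of every route library from D0 to D12S+. In 43 members (34.7%, all 62.4%) the D16S+ site lay under an iPSC H3K4me3 peak.

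**Figure D3:**
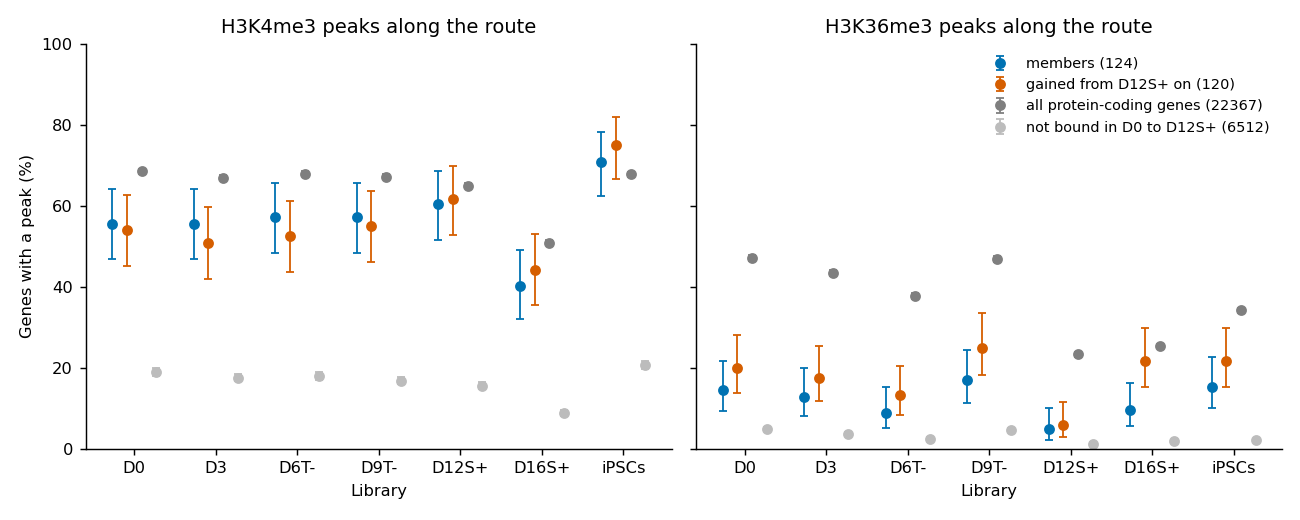
Percentage of genes with an H3K4me3 peak (left) or an H3K36me3 peak (right) in the 7 route libraries, for the same 4 groups of genes and with 95% Wilson intervals over genes. H3K4me3 stands at 55.6% of members in D0 and 71.0% in iPSCs, and H3K36me3 at 14.5 and 15.3%.

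**Figure D4:**
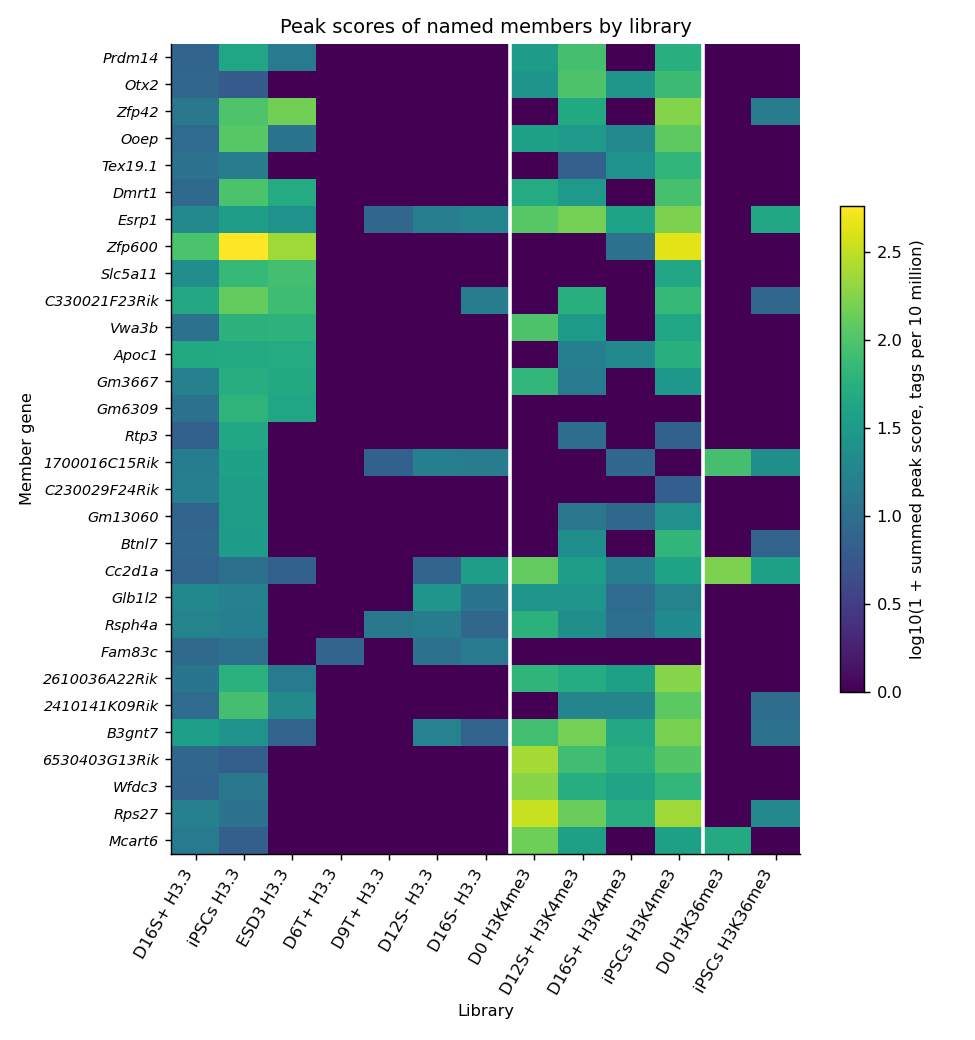
Summed peak scores of 30 named members (rows) in 13 libraries (columns), coloured by log10 of 1 plus the sum in tags per 10 M, with white lines between the H3.3, H3K4me3 and H3K36me3 libraries. Zfp600 has the brightest cells in iPSCs (574.92 for H3.3 and 440.8 for H3K4me3), and most named members are dark in the unsuccessful fractions.

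Part of the members gained H3.3 at sequence that occurs many times in the genome. The central 300 bp of each D16S+ peak was read as words of 30 bases, a word every 10 bases, and each word was counted in both strands of mm9. The median word had 10 copies or more in 28 of 141 member peaks (19.9%, interval 14.1 to 27.2%), against 3.08% of all D16S+ peaks in genes. The share was 7.43% among all genic D16S+ peaks that overlapped no earlier H3.3 peak, and 25.7% (19.98 to 32.3%) among the genes gained from D12S+ on. The median word was single-copy in 98 member peaks (69.5%, all 93.5%). The highest medians were 1171.5 copies at Zfp933, 908.5 at the peak that Kir3dl2 and Gm3129 share, 724 at Gm5127, 712.5 at Gm4788 and 665.5 at Gm10845. Reads at several loci had been removed by the authors, so tags at such sites come from the reads that could still be placed.

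The other marks of members at repeated and at single-copy sequence are set side by side here without a test. In 22 members all D16S+ peaks were at 10 copies or more, among them Mageb18, Mrgprx2, Slc22a29, Vmn2r91, Vwde and Chst13, and in 87 members all were single-copy. The site was found again in iPSCs in 18 of the 22 (81.8%) and in 54 of the 87 (62.1%), against 79.1% of all genes bound in D16S+. The gene was bound in ESD3 in 15 (68.2%) and 51 (58.6%, all genes 50.4%). An unsuccessful fraction was bound in 3 of the 22 (13.6%) and 34 of the 87 (39.1%), against 14909 of all 22367 genes. H3K4me3 in D0 was found in 7 (31.8%) and 55 (63.2%, all genes 68.6%). H3K36me3 in iPSCs was found in 0 of 22 and 18 of 87 (20.7%, all genes 34.3%). The 0 of 22 allows a share of up to about 13.6%, taken as 3 over 22 and not as a Wilson limit. The members at single-copy sequence include Zfp42, Prdm14, Otx2, Ooep, Tex19.1, Dmrt1, Esrp1 and Slc5a11.

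**Figure D5:**
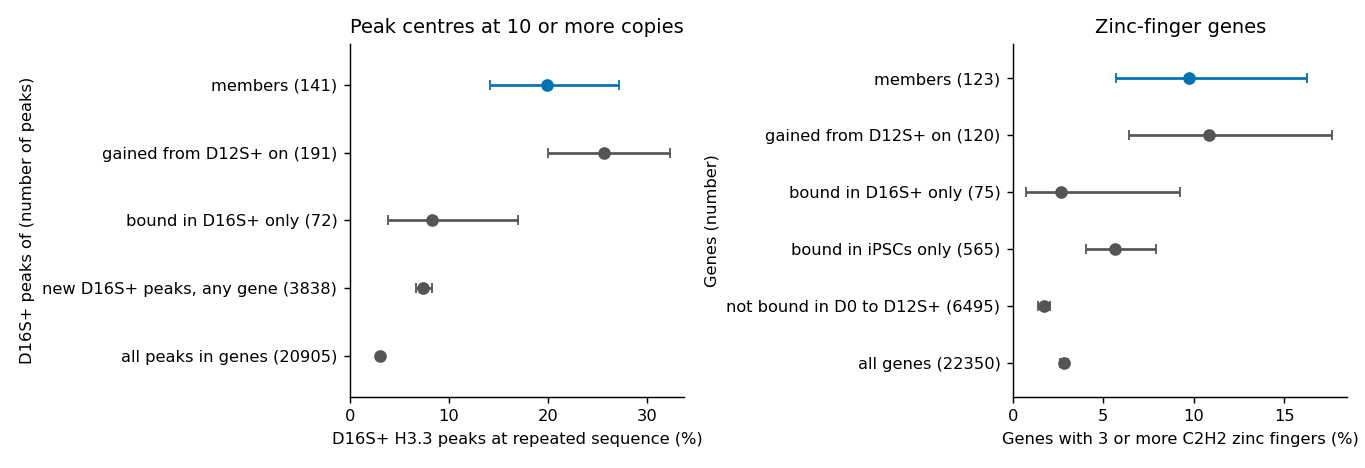
Left, percentage of D16S+ H3.3 peaks whose central 300 bp has a median of 10 or more genome copies per 30-base word, by group of genes; right, percentage of genes encoding 3 or more C2H2 zinc fingers, with 95% Wilson intervals and the number of peaks or genes in parentheses. Members stand at 19.9 and 9.76%, against 3.08 and 2.82% for all.

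Members were spread over the genome with few neighbours. Within 500 kb of each other, 21 members formed 10 groups, of which the largest held Kir3dl2, Gm3129 and Mcart6 on chromosome X, from 132982646 to 133572841 in mm9. Kir3dl2, a receptor of the killer-cell immunoglobulin-like family, and Gm3129 share the same peak of sums 6.93 in D16S+ and 9.23 in iPSCs, so that they count as a single gain.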

How the data were processed

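ChIP-Seq peak lists of 30 libraries were used (16 H3.3, 7 H3K4me3 and 7 H3K36me3), of 46 samples in all. The other 16 samples were inputs, and no input file was analysed here on its own. Per the study's methods and the file headers, reads were mapped to mm9 with STAR, reads at several loci were removed, and the authors called peaks in each library against an input with HOMER (versions not given in the sources used here). The deposited score is a signal that the authors obtained by scaling the tag count of a peak to 10 M tags. The fold over input is a deposited ratio, at least 2 for H3.3 and 4 for H3K4me3 and H3K36me3, and the p-value against input in the deposited lists is an unadjusted Poisson value with a limit of 1e-04. These limits, the depth of each library and the sharing of inputs set which peaks are listed.

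Gene windows came from GENCODE vM1 on the same build, and a peak whose midpoint lay in several windows counted for each gene. Current names came from RefSeq symbols of another build (115 of 124 members matched, 15 renamed). Shares carry 95% Wilson intervals. The binding calls were tested on simulated peaks, where 67 of 67 planted members were recovered. Input density was the input tags per kb under a gene's peaks over the library's median. Sequence, word counts and motifs were read from the mm9 assembly. Python 3.11.15 with pandas 2.3.3, NumPy 2.4.6, SciPy 1.17.1, pysam 0.24.0 and matplotlib 3.10.9 was used.

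Genes were named by rule: members on a gene list, the 10 highest ESD3 sums, the 5 highest iPSC sums without ESD3 binding, the 6 highest sums over the unsuccessful fractions, the 6 largest positive and 4 largest negative H3K4me3 differences and the 4 largest positive H3K36me3 differences from D0 to iPSCs, the genes nearest the window edge, and the largest group of neighbours. Members, lists and groups were chosen with earlier results of these data known. Alternatives were other gene windows, overlap in place of the midpoint, the nearest start, stricter peaks, an equal number of peaks, autosomes only and counting shared peaks once; leaving out repeated sequence, differing sites or any earlier base was added after the data were seen. Gene expression was not analysed here. Some items that the naming rule or the lists select are not reported here.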

Additional observations from a re-analysis of the deposited data

Results flagged for a closer look

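Input tags under the H3.3 peaks of 4 members were more than 3 times as dense as the median of the same library. For Zfp600 the density was 4.67 times the median in D16S+, 4.16 times in iPSCs and 4.74 times in ESD3. In ESD3 it was 3.33 times the median for 2410141K09Rik, 4.23 times for Gm3667 and 3.29 times for 2610036A22Rik. In D16S+, Zfp600 was the only one of the 124 members over this limit (0.806%), against 43 of the 9298 genes bound there (0.462%).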

How the results depend on the processing

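Over 12 alternatives, 74 of 89 recomputed values stayed near the reported ones and 15 moved. The number of members went from 124 to 261 with an equal number of 33972 peaks per list. That setting also moved the shares bound in MEF (21.8%), bound in none of the unsuccessful fractions (76.6%), with H3K36me3 in iPSCs (30.3%) and with H3K4me3 in D0 (77.4%) and iPSCs (85.4%). With a flank of 5 kb the share bound in no unsuccessful fraction was 77.0%, and H3K4me3 stood at 37.0% in D0 and 54.5% in iPSCs. With peaks at or above the median score these were 67.5% and 79.6%, and H3K36me3 in iPSCs 28.0%. Without a flank, H3K36me3 in iPSCs was 23.8%. With a fold of at least 4, 1.08% were bound in MEF (all genes 5.69%). Without any base of an earlier peak in the window, an alternative chosen after seeing the data, 8.74% were bound in D16S-. The share bound in ESD3 stayed between 54.9 and 67.5% in all 11 alternatives. The cause of these moves was not tested. Of 124 members, 55 were kept in 5 or more of 7 other ways of calling, 4 in all (Vwa3b, F830045P16Rik, Gm7205 and Csmd1) and 3 in none. No paired analysis was possible because each group had 1 library and no test was made, and for the same reason no replicate could be left out.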
